A study of Oryctolagus cuniculus with 36 samples.

Results

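Transcripts of 3 rabbit genes, of 9419 listed, were followed library by library in liver and ileum after portal vein embolization and treatment with obeticholic acid (OCA). They were ENSOCUG00000005666, ENSOCUG00000010723 and ENSOCUG00000012661. They were picked from measured values, namely the differences between liver lobes and between treatments in these same liver libraries, as genes low in the embolized lobe and higher after OCA. Liver differences are therefore given as a description without a test, and only the ileum comparison and the variation within groups were tested. The description holds for ENSOCUG00000005666 and ENSOCUG00000010723. It holds in part for ENSOCUG00000012661, which was not lower in the embolized lobe after vehicle.

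Wild-type rabbits were pre-treated with OCA or vehicle and all underwent portal vein embolization. There were 6 groups of 6 libraries: the embolized cranial liver lobe after OCA and after vehicle, the non-embolized caudal liver lobe after OCA and after vehicle, and the terminal ileum after OCA and after vehicle. The labels do not give the age of the animals, the dose, the time of sampling, or how many rabbits the libraries of a group represent. The embolized lobe was always cranial, so its position and the embolization cannot be told apart, and no liver without embolization was analysed here.

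Portal vein embolization closes the portal branches to part of the liver. The deprived lobes shrink, and the lobes that receive the diverted portal blood grow. Portal blood carries bile acids and nutrients from the gut to the hepatocytes. OCA is a bile acid derivative that activates FXR, a nuclear receptor of hepatocytes and ileal enterocytes that senses bile acids and regulates genes of their synthesis and transport. The files give each gene only as an Ensembl ID, and 0 of the 9419 IDs could be paired with a symbol, so the roles of the 3 genes are not given and the tissue labels were not checked against marker genes.

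Values are normalized counts, that is, reads per gene divided by the authors' size factor for each library. Liver libraries held between 12.01 M and 27.3 M recovered reads (M, megareads) and ileum libraries between 11.2 M and 24.5 M. Embolized lobes were sequenced less deeply, with a median of 14.3 M after OCA and 13.9 M after vehicle, against 18.7 M and 20.8 M in the non-embolized lobe after OCA and after vehicle. The part of depth in the differences below was not tested. Scaling all libraries to equal totals left the same genes without overlap in each comparison. That changes only the divisor of each library, so it cannot show the part of depth for genes with few or no reads.

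Taken as a ratio, the difference of ENSOCUG00000005666 between the lobes was smaller after OCA than after vehicle. In normalized counts the gap between the lobe medians was larger after OCA. In the embolized lobe after OCA the lowest, median and highest of the 6 libraries were 320, 725 and 1376 normalized counts. After vehicle that lobe had 10.3, 129 and 266. The non-embolized lobe had 5214, 6845 and 7249 after OCA and 2120, 3998 and 5192 after vehicle. The 4 groups thus lay in the order non-embolized OCA, non-embolized vehicle, embolized OCA, embolized vehicle, and no neighbours in that order overlapped, although the 2 non-embolized groups were close at 5214 and 5192.

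The mean of ENSOCUG00000005666 was 788 ± 357 normalized counts in the embolized lobe after OCA and 141 ± 112 after vehicle (SD, n = 6 each), 5.59 times as high after OCA. The non-embolized lobe averaged 6583 ± 735 after OCA and 3667 ± 1121 after vehicle, 1.80 times as high. On the log2(value + 1) scale the OCA difference was 2.99 ± 0.52 in the embolized lobe and 0.90 ± 0.52 in the non-embolized lobe (standard errors from limma). The lobe difference, embolized minus non-embolized, was −3.19 ± 0.52 after OCA and −5.28 ± 0.52 after vehicle. With OCA the embolized lobe held 11.97% of the level of the treated non-embolized lobe, and 21.5% of that of the vehicle non-embolized lobe. In bulk tissue, fewer cells of a type that express the gene and less RNA per cell cannot be told apart.

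The spread of ENSOCUG00000005666 differed widely between groups. The SD was 45.3% of the mean in the embolized lobe after OCA and 79.2% after vehicle, against 11.2% in the non-embolized lobe after OCA and 30.6% after vehicle. The highest embolized vehicle library exceeded the lowest by 25.8 times, and the lowest, vehicle 2, rested on 7 reads. Without that library the OCA difference in the embolized lobe was 2.39 on the log2 scale. The limma standard errors share 1 spread over the 4 liver groups and do not show this contrast between groups.

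**Figure D1:**
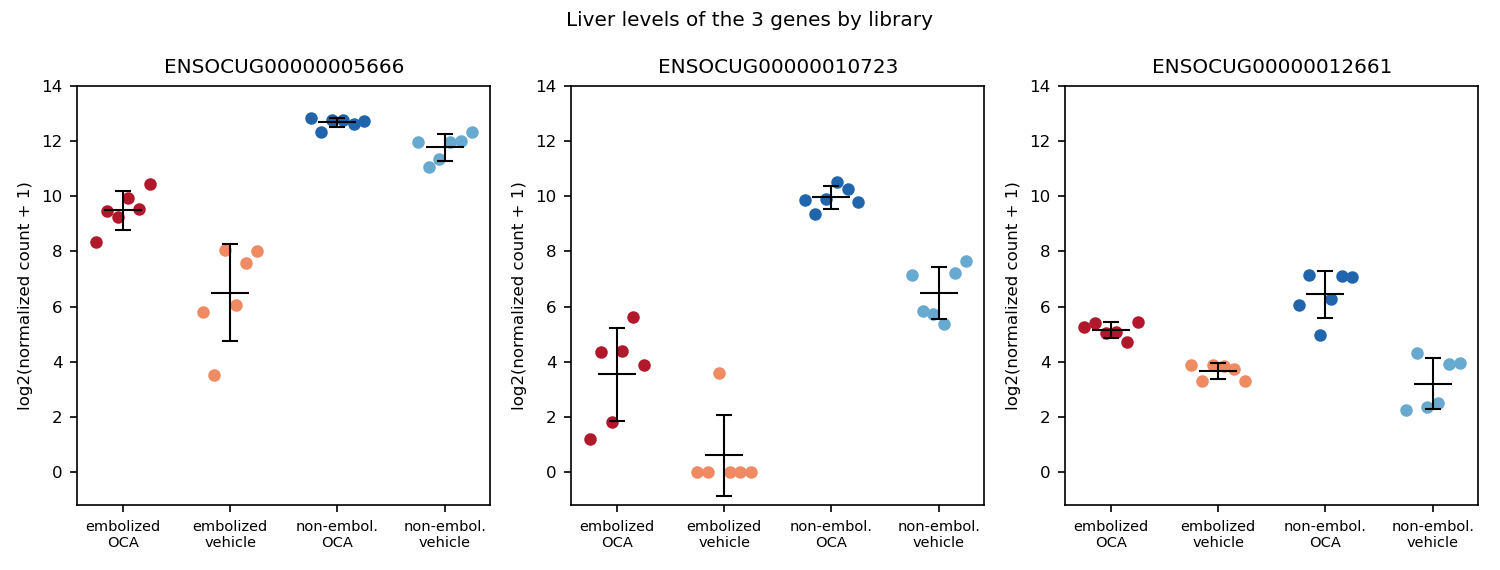
Each point is 1 liver library; the y axis is log2(normalized count + 1), and bars give the mean and SD of 6 libraries in each lobe and treatment. The embolized OCA libraries of ENSOCUG00000005666 lie above all embolized vehicle libraries and below all non-embolized ones, whereas ENSOCUG00000012661 differs by treatment in both lobes and has overlapping lobes.

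ENSOCUG00000010723 was low in the embolized lobe, and its treatments lay apart in the non-embolized lobe. In the embolized lobe most vehicle libraries, OCA 1 and OCA 3 were at or near the detection limit. The other embolized OCA libraries held 14 to 38 reads of the gene. Its embolized OCA libraries had a lowest, median and highest value of 1.27, 16.5 and 47.6 normalized counts. After vehicle 5 of the 6 embolized libraries were at 0 and vehicle 3 was at 11.01. A count of 0 allows up to 3 reads, which is 2.65 to 5.37 normalized counts in those libraries.

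In the non-embolized lobe ENSOCUG00000010723 reached 660, 954 and 1483 normalized counts after OCA (lowest, median and highest), against 39.9, 98.1 and 198 after vehicle. Every OCA library of this lobe lay above every vehicle library, with 660 as the lowest and 198 as the highest. The embolized groups overlapped, since OCA 1 and OCA 3 were at 1.27 and 2.54, below vehicle 3. The embolized OCA and non-embolized vehicle groups also overlapped, at 47.6 and 39.9.

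The mean of ENSOCUG00000010723 in the non-embolized lobe was 1026 ± 289 normalized counts after OCA and 106 ± 64.6 after vehicle (SD, n = 6 each), a ratio of 9.72 and a log2 difference of 3.47 ± 0.66. In the embolized lobe it was 17.4 ± 16.8 after OCA and 1.84 ± 4.50 after vehicle, with a log2 difference of 2.94 ± 0.66. All 6 embolized OCA libraries held at least 1 read of the gene and together 100 reads, against 12 reads in the 6 embolized vehicle libraries, all of them from vehicle 3. The lobe difference was −6.42 ± 0.66 after OCA and −5.89 ± 0.66 after vehicle. Under OCA the embolized lobe held 1.70% of the non-embolized level. Because so many values were at 0, the differences that involve the embolized vehicle group depend on the pseudocount: with 5 in place of 1 the lobe difference after vehicle was −3.96 and the OCA difference in the embolized lobe was 1.52. Without vehicle 3, which leaves the embolized vehicle group at 0, they were −6.49 and 3.54 with the pseudocount of 1, and such values against 0 are no measure of size.

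ENSOCUG00000012661 separated the treatments in both lobes but the lobes only loosely. In the embolized lobe after OCA the lowest, median and highest libraries were at 25.1, 34.6 and 42.9 normalized counts, against 8.85, 12.8 and 13.9 after vehicle. The non-embolized libraries were at 30.6, 105 and 140 after OCA, against 3.70, 9.28 and 18.7 after vehicle. OCA libraries lay above vehicle libraries in each lobe. Between lobes the groups overlapped under each treatment, and after vehicle the embolized mean was the higher one.

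The mean of ENSOCUG00000012661 was 35.03 ± 6.63 normalized counts in the embolized lobe after OCA and 11.8 ± 2.35 after vehicle (SD, n = 6 each), a ratio of 2.96 and a log2 difference of 1.49 ± 0.38. In the non-embolized lobe it was 97.2 ± 46.1 after OCA and 9.91 ± 6.51 after vehicle, a ratio of 9.81 and a log2 difference of 3.23 ± 0.38. The lobe difference was −1.29 ± 0.38 after OCA and 0.46 ± 0.38 after vehicle. Its mean was thus lower in the embolized lobe after OCA but not after vehicle, and after OCA non-embolized OCA 3, at 30.6, lay inside the embolized range. Unlike ENSOCUG00000005666, it had a mean 3.54 times as high in the embolized lobe after OCA as in the non-embolized lobe after vehicle. How many of all genes differ in this way was not computed, and these groups also chose the gene. Vehicle values rested on few reads, 5 to 15 per library in the embolized lobe and 3 to 27 in the non-embolized lobe.

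Groups without overlap were set against all 8653 genes tested in liver. Among embolized libraries those with OCA lay above all with vehicle for 2 of the 3 genes, and for 0.15% of all genes. In the non-embolized lobe they did so for 3 of 3, and for 0.832% of all genes. Embolized libraries lay below all non-embolized ones for the same 2 of 3 genes under each treatment, ENSOCUG00000005666 and ENSOCUG00000010723, and for 7.47% of all genes after OCA and 5.94% after vehicle. The 3 genes were chosen from these very comparisons, so nothing is read from these counts.

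**Figure D2:**
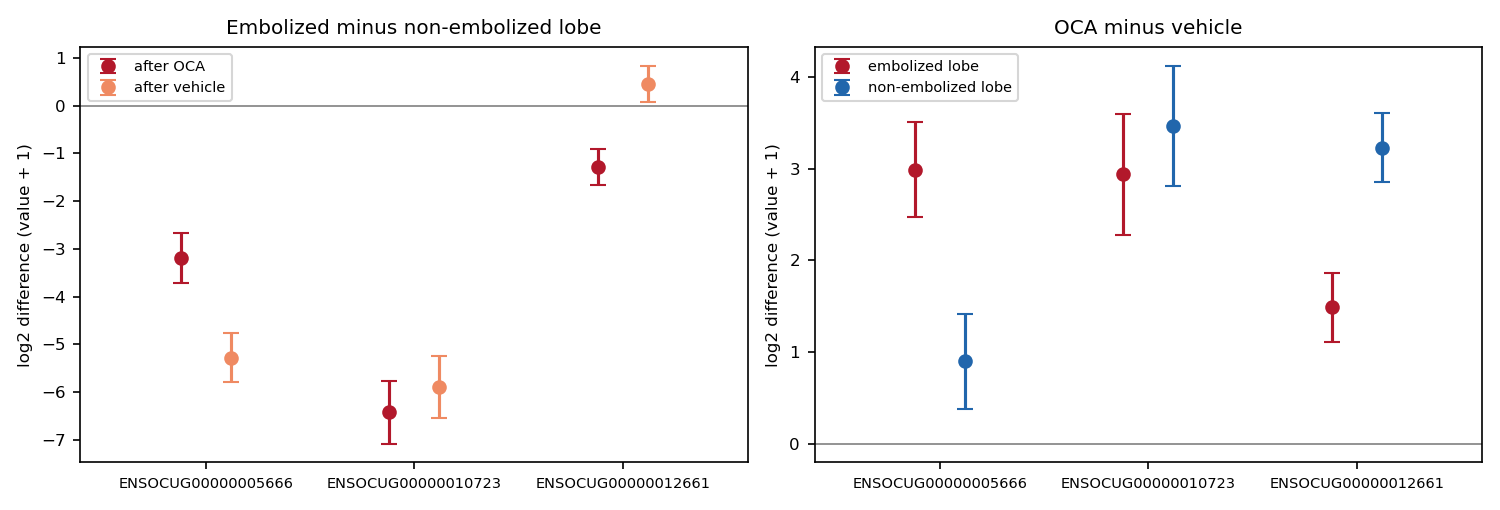
Points are log2 differences from the limma fit of 24 liver libraries on log2(value + 1), with standard errors as bars; the left panel gives embolized minus non-embolized lobe after OCA and after vehicle, and the right panel gives OCA minus vehicle in each lobe. The lobe difference of ENSOCUG00000012661 is −1.29 after OCA and 0.46 after vehicle.

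The joint change, the OCA difference in the embolized lobe minus that in the non-embolized lobe, ran in opposite directions among the 3 genes. It was 2.09 ± 0.73 on the log2 scale for ENSOCUG00000005666, whose lobe gap on that scale was smaller after OCA. It was −1.75 ± 0.54 for ENSOCUG00000012661, for which a lobe gap appeared after OCA. For ENSOCUG00000010723 it was −0.53 ± 0.93, and its sign turned with the pseudocount (0.19 at 0.5, −1.88 at 5). The same groups chose the genes, so these values are not tested singly. Across all genes the limma-trend test of this difference called 0 of 8653 (0%; 631 at an unadjusted p under 0.05), edgeR called 0 (554) and DESeq2 called 5 (629).

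The library numbers in the labels run in 2 blocks, replicates 1 to 3 and 4 to 6 of each group, so each difference was also computed within a block. For ENSOCUG00000005666 the OCA difference in the embolized lobe was 3.23 and 2.75 in replicates 1 to 3 and 4 to 6, and in the non-embolized lobe 1.20 and 0.60. Its lobe difference was −3.64 and −2.74 after OCA and −5.67 and −4.89 after vehicle. Its 4 groups did not overlap, which fixes the direction of each of these values.

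For ENSOCUG00000010723 the OCA difference in the embolized lobe was 1.26 in replicates 1 to 3 and 4.62 in replicates 4 to 6, while in the non-embolized lobe it was 3.48 and 3.46. Replicates 1 to 3 hold the only embolized vehicle library with reads and the 2 lowest embolized OCA libraries. Its lobe difference was −7.27 and −5.57 after OCA and −5.05 and −6.73 after vehicle. For ENSOCUG00000012661 the OCA difference was 1.53 and 1.45 in the embolized lobe and 3.09 and 3.37 in the non-embolized lobe. Its lobe difference was −0.84 and −1.74 after OCA and 0.73 and 0.19 after vehicle.

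Variation within groups was not used to choose the genes, and it was tested for relations among them. In total 18 relations were computed, 12 between pairs of genes within a group and 6 of 1 gene between same-numbered libraries of the 2 lobes. ENSOCUG00000005666 and ENSOCUG00000010723 had a Pearson's r of 0.56 to 0.66 in the 3 groups other than embolized vehicle, each of 6 libraries. In the embolized vehicle group ENSOCUG00000010723 was at 0 in 5 of 6 libraries, so r there, 0.43, rests on vehicle 3 alone. None of the 4 passed (exact permutation test over pairings, two-sided, adjusted p = 0.831 for each). In the embolized lobe after OCA r was 0.66, Spearman's rho 0.60 and the exact unadjusted permutation p 0.172, and r was 0.57 without the 2 libraries farthest from the median. In the non-embolized lobe after OCA r was 0.56, rho 0.31 and p 0.242 by the same exact permutation test, and r was −0.22 without 2 libraries. It was also −0.010 when libraries were scaled to equal totals.

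The relation with the lowest p was within ENSOCUG00000012661, between the embolized and non-embolized lobes of the 6 same-numbered vehicle pairs. The numbers are taken here as pairs because of how the libraries vary together, which no label states. The lobe with more transcript changed from pair to pair: the embolized lobe was higher in 3 pairs and lower in 3, at 47.3% to 375% of the non-embolized value. Pearson's r was −0.87 and Spearman's rho −1, each with an exact two-sided permutation p of 0.00278, the smallest that 6 pairs allow for rho. Over the 18 relations the adjusted p of this exact permutation test was 0.05 for each, which is not under the threshold of 0.05. Of the 18, 3 relate same-numbered OCA lobes, whose numbers were not read as pairs; over the other 15, a choice made after the result was seen, the adjusted p was 0.0417. With equal totals r was −0.51, rho −0.14 and the unadjusted p 0.328 and 0.803 by the same exact permutation test, so the relation rests on the scaling. Without the 2 libraries farthest from the median r was −0.75. Each of the values behind it rested on 3 to 27 reads.

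**Figure D3:**
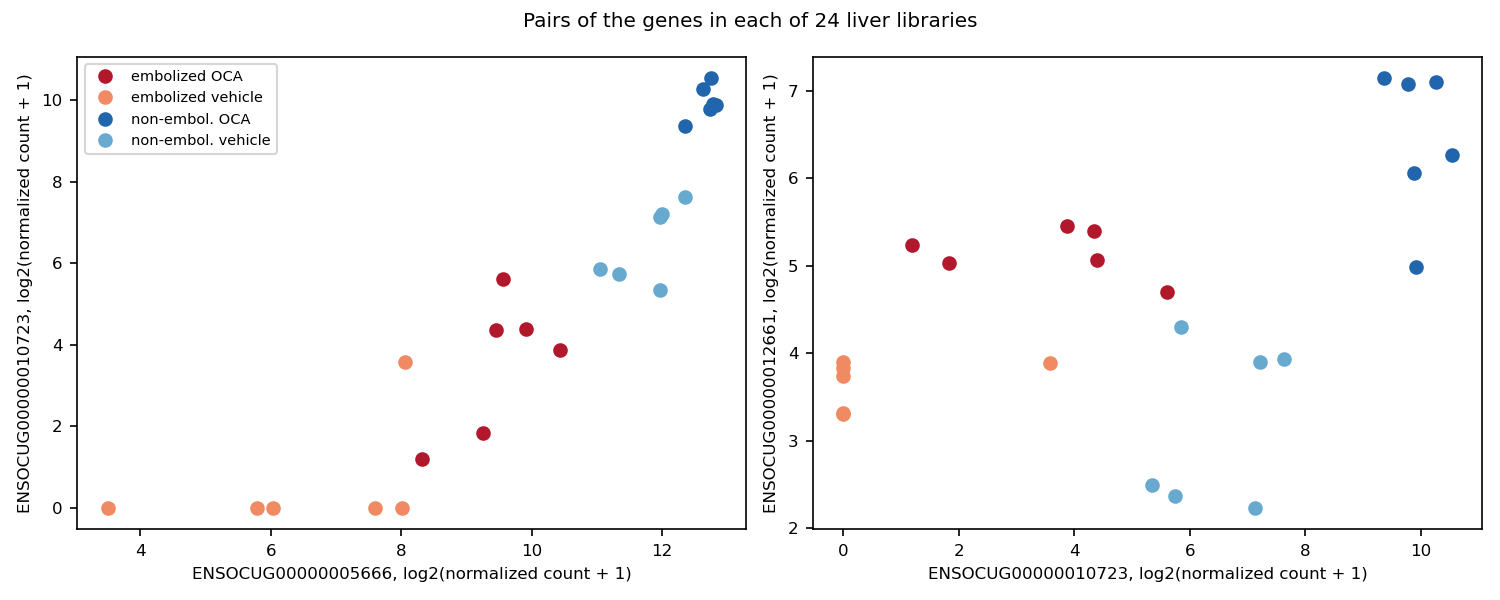
Each point is 1 of 24 liver libraries; both axes are log2(normalized count + 1), and colours mark the lobe and treatment. On the left the 4 groups follow each other along 1 diagonal, with 5 embolized vehicle libraries at 0 for ENSOCUG00000010723. On the right the treatments separate along the vertical axis (ENSOCUG00000012661). Within each treatment the lobes separate along the horizontal one, where embolized OCA and non-embolized vehicle libraries overlap.

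Over all 24 liver libraries the profiles of ENSOCUG00000005666 and ENSOCUG00000010723 were alike, with r = 0.91, while ENSOCUG00000012661 had r = 0.38 with the first and 0.51 with the second. These values are descriptions, because the libraries form 4 groups and differences between those groups chose the genes. Of the 8653 genes, 6 were closer to ENSOCUG00000010723 than ENSOCUG00000005666 was, and 1419 were closer to it than ENSOCUG00000012661 was. From ENSOCUG00000005666, 11 genes were closer than ENSOCUG00000010723 and 2023 closer than ENSOCUG00000012661. From ENSOCUG00000012661, 152 were closer than ENSOCUG00000010723 and 549 closer than ENSOCUG00000005666.

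The 2 genes with the profile closest to ENSOCUG00000005666 were ENSOCUG00000013119 (r = 0.93 over 24 libraries) and ENSOCUG00000009032 (r = 0.93). After subtraction of group means r was 0.69 and 0.48. ENSOCUG00000009032 averaged 124 ± 61.4 normalized counts in the embolized lobe after OCA and 32.3 ± 19.96 after vehicle, against 1116 ± 249 and 759 ± 309 in the non-embolized lobe after OCA and after vehicle (SD, n = 6). Its means had the order of the 4 groups seen in ENSOCUG00000005666, but its non-embolized groups overlapped (lowest OCA library 697, highest vehicle library 1163). The means of ENSOCUG00000013119 had that order too over a smaller span, with the same overlap (257 and 286), at 170 ± 33.2 and 103 ± 38.3 in the embolized lobe after OCA and after vehicle and 311 ± 47.7 and 245 ± 33.8 in the non-embolized lobe.

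Closest to ENSOCUG00000010723 were ENSOCUG00000025768 and ENSOCUG00000017700, each with r = 0.94, and 0.56 and 0.60 after subtraction of group means. Both were far from 0 in the embolized lobe. ENSOCUG00000025768 averaged 333 ± 126 normalized counts there after OCA and 172 ± 72.6 after vehicle, against 1463 ± 500.4 and 702 ± 282 in the non-embolized lobe after OCA and after vehicle. ENSOCUG00000012661 had looser matches in ENSOCUG00000011300 (r = 0.76) and ENSOCUG00000008793 (r = 0.75), with 0.10 and 0.34 after subtraction of group means. The likeness to ENSOCUG00000011300 therefore lay almost wholly in the group means. That gene averaged 3996 ± 790.2 normalized counts in the embolized lobe after OCA and 2948 ± 870.4 after vehicle, against 5125 ± 1014 and 2483 ± 395 in the non-embolized lobe.

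The ileum gave the range of the 3 genes outside liver, and its libraries had no part in their choice. Ileum and liver tables were normalized separately, so levels are set side by side only as CPM (reads per 1000000 recovered reads of the 9419 genes), without a test between tissues. ENSOCUG00000010723 and ENSOCUG00000012661 were both present in all 12 ileum libraries, whereas ENSOCUG00000005666 was nearly absent from 11 of the 12.

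ENSOCUG00000010723 averaged 49.5 ± 18.4 CPM in ileum after OCA and 42.4 ± 20.7 after vehicle (SD, n = 6 each). The liver reached this only in the treated non-embolized lobe, at 61.8 ± 12.4, against 6.37 ± 3.62 in the vehicle non-embolized lobe. In normalized counts the lowest, median and highest ileum libraries were 347, 826 and 1273 after OCA and 108, 736 and 929 after vehicle. The OCA difference in ileum was 0.40 ± 0.52 on the log2 scale, with a 95% interval from −0.72 to 1.52, and did not pass (limma-trend over 9010 genes, adjusted p = 0.806).

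ENSOCUG00000012661 averaged 25.5 ± 13.9 CPM in ileum after OCA and 24.98 ± 19.9 after vehicle. In liver it stayed at or below 10.53 in all 24 libraries. The lowest ileum libraries, at 3.20 CPM after OCA and 3.31 after vehicle, lay inside the liver range. In normalized counts the lowest, median and highest ileum libraries were 37.7, 449 and 608 after OCA and 65.5, 274 and 810 after vehicle. The groups overlapped throughout, and the OCA difference was 0.11 ± 0.72 (95% interval −1.46 to 1.68; limma-trend, adjusted p = 0.968). No gene of 9010 passed in ileum with limma-trend (0%; 688 at an unadjusted p under 0.05) or edgeR (973), while DESeq2 called 80 (1016).

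ENSOCUG00000005666 held 0 to 5 reads in 11 ileum libraries, at most 5.18 normalized counts. In ileum vehicle 6 it held 4867 reads, or 3934 normalized counts. In CPM this was 199, inside the range of the vehicle non-embolized lobe (144 to 291). The gene did not pass the filter for the limma test in ileum. Its OCA difference was −1.78 on the log2 scale (exact permutation test over 12 libraries, two-sided p = 0.504) and 0.03 without vehicle 6 (p = 0.987 by the same exact permutation test).

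Vehicle 6 and OCA 1 stood apart from the other ileum libraries. Over 9010 genes their median r with the other libraries was 0.755 and 0.832, against 0.928 to 0.958 for the other 10. Both were also the lowest libraries of their groups for ENSOCUG00000010723 (347 in OCA 1, 108 in vehicle 6) and ENSOCUG00000012661 (37.7 in OCA 1, 65.5 in vehicle 6). In vehicle 6 the most abundant gene held 27.7% of the reads, against 3.36% in OCA 1 and at most 6.35% in any other ileum library. The part of this share in the low values of vehicle 6 was not tested. The part of vehicle 6 and OCA 1 in the ileum result was assessed by leaving out both. ENSOCUG00000010723 then averaged 879 ± 341 normalized counts after OCA and 760.3 ± 187 after vehicle, and ENSOCUG00000012661 470.4 ± 91.9 and 447 ± 279 (SD, n = 5 each), and neither passed.

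**Figure D4:**
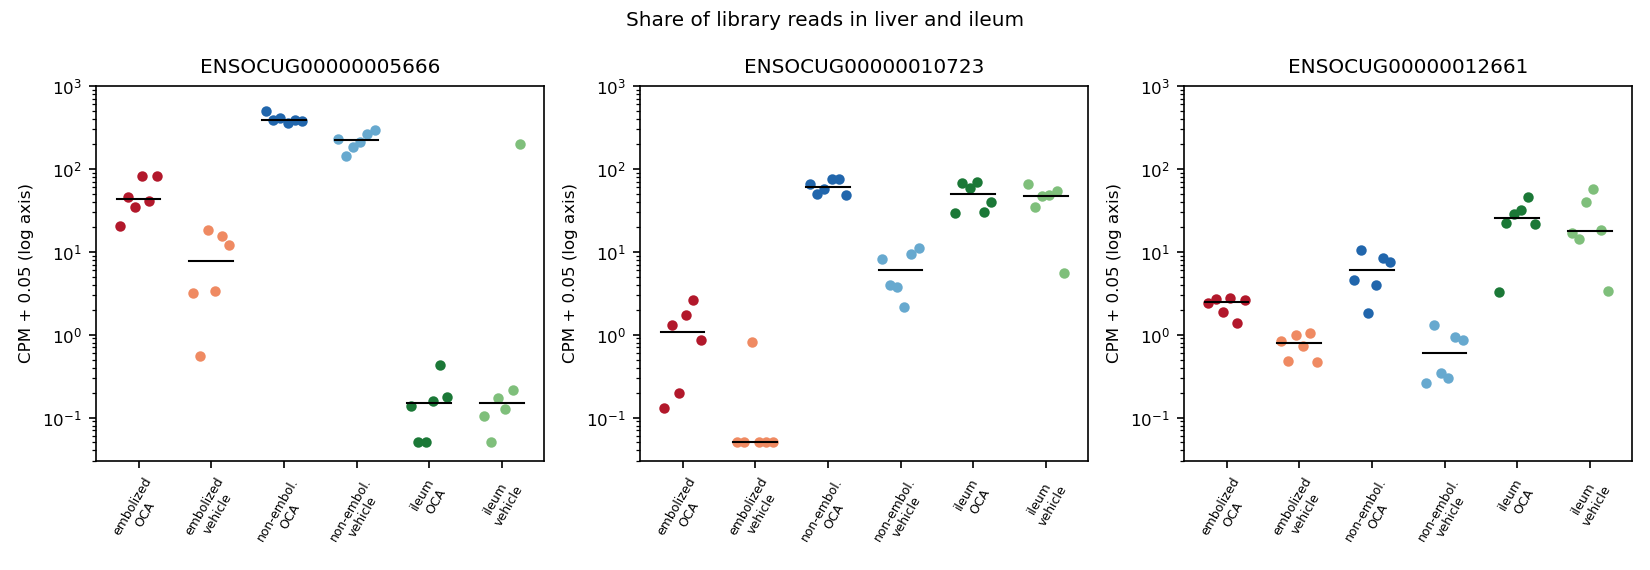
Each point is 1 library and each line the median of 6; the y axis is CPM plus 0.05 on a log axis, for the 4 liver groups and the 2 ileum groups. ENSOCUG00000005666 is near 0 in ileum except for vehicle 6 at 199, and ENSOCUG00000010723 in the treated non-embolized lobe (48.0 to 76.5) overlaps the ileum after OCA (29.5 to 70.1).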

How the data were processed

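RNA from 36 libraries was read in pairs of 150 bases from strand-specific libraries, per the labels' protocols. The submitters' processing notes name STAR, RSEM and DESeq2; versions, build and annotation were not given in the sources used here. For each gene the authors deposited a normalized signal (reads over a size factor of the library), with ileum and liver apart. Of all values in the ileum and the liver file 100% were whole multiples of their library's smallest step (tolerance 0.01), so reads were recovered. Of the 9419 IDs 0 matched the RefSeq table (assembly mOryCun1.1), which lists no Ensembl IDs, so the gene lists planned by symbol were not used and no sequence is shown.

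Differences and standard errors are from limma-trend (limma 3.58.1 under R 4.3.3), fitted to log2 values with a pseudocount of 1. Genes entered when 6 or more libraries of their file had a value of 10 or more, with the 24 liver libraries in 1 fit of 4 group means; fold changes on this scale understate those of low genes. Thresholds are a Benjamini-Hochberg adjusted p under 0.05. The test was checked on simulated reads. Alternatives were other scalings, pseudocounts, filters and sample sets, a replicate block, a term for the 2 blocks of replicate numbers, and edgeR 4.0.16 and DESeq2 1.42.0 on recovered reads. The 3 genes, their lists and tests were chosen with earlier results of these data known. Besides the 3 genes, the text names for each the 2 genes of highest Pearson r with it over the liver libraries. In 90 pairs of libraries within groups the smallest chi-square per degree of freedom was 36.3, so none was a duplicate. The labels do not say whether libraries came from separate animals, so a p-value speaks only of the variation among these libraries, which may be technical; limits from counts cover counting error only.

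Same-numbered libraries were checked as pairs by the correlation over genes of their deviations from group means. Between the vehicle lobes 6 of 6 exceeded 0.1 (0.14 to 0.53) and the numbers were read as pairs. Between the OCA lobes 5 of 6 did (−0.11 to 0.49), and between treatments at most 4 of 6. These were not read as pairs. By another measure the vehicle numbers did not match better than the OCA numbers. The non-embolized library of highest correlation had the same number for 4 of 6 embolized libraries after vehicle and for 5 of 6 after OCA.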

Additional observations from a re-analysis of the deposited data

Results flagged for a closer look

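Of 18 groups of 6 values (3 genes in 6 groups), 2 held a library far from the other 5. The cutoff marks about 1 in 20 groups of normally distributed values, a rate that does not hold for skewed counts near 0. A group with 5 values at 0 and 1 above 0 is always marked. ENSOCUG00000005666 was at 3934 normalized counts in ileum vehicle 6, and at most at 5.18 in the other 11 ileum libraries. ENSOCUG00000010723 was at 11.01 normalized counts (12 reads) in embolized vehicle 3, and at 0 in the other 5 libraries of that group; the same library was also the highest of its group for ENSOCUG00000005666, at 266.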

How the results depend on the processing

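In liver, the differences of ENSOCUG00000005666 and ENSOCUG00000012661 moved by less than 1 SD between libraries under every alternative run. For ENSOCUG00000010723 the OCA difference in the embolized lobe was 1.26 in replicates 1 to 3 alone and 4.62 in 4 to 6, its joint change −2.22 and 1.16, and with a pseudocount of 5 its lobe difference after vehicle was −3.96 and its joint change −1.88; the many values at 0 make it depend on the pseudocount. Fitted with only the 2 embolized groups it failed the filter. Leaving out 1 library at a time gave joint changes of 1.49 to 2.40 for ENSOCUG00000005666, −0.94 to 0.07 for ENSOCUG00000010723 and −2.04 to −1.55 for ENSOCUG00000012661.

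In ileum the direction of each gene turned under at least 1 alternative. Over fits without 1 library ENSOCUG00000005666 ran from −2.36 to 0.030, ENSOCUG00000010723 from −0.062 to 0.60 and ENSOCUG00000012661 from −0.31 to 0.70. Without vehicle 6 and OCA 1, left out together after the data were seen, ENSOCUG00000005666 was at 0.045 and 7 genes were called, and in replicates 1 to 3 alone ENSOCUG00000012661 was at −0.68. DESeq2 called 80 genes in ileum and 5 for the joint change, against 0 with limma. Leaving out 1 library gave 0 in each with limma, and DESeq2 was not run without a library. With equal totals r of ENSOCUG00000005666 with ENSOCUG00000010723 in the treated non-embolized lobe was −0.010; the cause was not tested. Without the 3 relations between OCA lobes the relation of r −0.87 between the vehicle lobes of ENSOCUG00000012661 had an adjusted p of 0.0417 by the exact permutation test. In the liver comparisons of OCA with vehicle limma, edgeR and DESeq2 called 17, 17 and 92 genes in the embolized lobe and 54, 42 and 265 in the non-embolized lobe, and between lobes 2781, 2808 and 3048 after OCA and 2210, 2287 and 2546 after vehicle. With the replicate block, which fits balanced groups to the same means, the joint changes stayed at 2.09, −0.53 and −1.75. The main standard errors do not use pairs of libraries. With the block those of the joint change were 0.59, 0.90 and 0.56, against 0.73, 0.93 and 0.54. Those of the lobe difference after vehicle were 0.41, 0.64 and 0.40, against 0.52, 0.66 and 0.38. Genes at a few reads per library set the limit of depth here, in embolized libraries above all.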
